A study of Mus musculus with 6 samples.

Results

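Epithelial-mesenchymal transition regulators and cadherins were followed here as 10 genes chosen by symbol, out of 22061 named genes on the arrays. They are the cadherins Cdh1, Cdh2 and Cdh6, the transcription factors Snai1, Snai2, Twist1, Zeb1 and Zeb2, and the contractile genes Acta2 and Tagln. Each had 1 probe set on the array, so no choice between probe sets was needed, and each passed into the test without a filter on dim values. The rule that picks them uses gene symbols and no measured value, although the set was drawn up with earlier results of these data known.

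RNA came from MCT cells, a proximal tubular epithelial line from the renal cortex of SJL mice, rested overnight without serum. The 3 control arrays hold vehicle-treated cells and the 3 TWEAK arrays hold cells given TWEAK, a TNF superfamily cytokine that signals through Fn14, for 6 h at 100 ng/mL. All 6 cultures were the same line in the same serum-free medium, and the series describes them as independent experiments of that line and not of separate animals. The study compared both states to find the transcripts that TWEAK alters in tubular cells.

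Cadherins are calcium-dependent adhesion proteins that join neighbouring cells at adherens junctions. In the kidney, E-cadherin (Cdh1) is best known from distal segments, and N-cadherin (Cdh2) and cadherin-6 (Cdh6) from the proximal tubule. In an epithelial-mesenchymal transition the zinc finger factors of the Snail and Zeb families and the basic helix-loop-helix factor Twist1 repress Cdh1 through E-boxes, and cells can gain Cdh2 and the smooth muscle proteins alpha-actin (Acta2) and transgelin (Tagln). Such partial transitions are described in injured tubules, and microRNAs of the miR-200 family hold Zeb1 and Zeb2 down in epithelial cells.

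The mature miR-200 sequences are shown because they group the regulators of Zeb1 and Zeb2 measured further on. They are from RefSeq (GRCm38.p6), written 5′ to 3′, with the seed (bases 2 to 8) in capitals. The 3 miRNAs listed first share the seed AAUACUG, the next 2 share AACACUG, and miR-205, from another family that also targets the Zeb genes, carries CCUUCAU.
mmu-miR-200b-3p: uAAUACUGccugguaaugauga
mmu-miR-200c-3p: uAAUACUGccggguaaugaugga
mmu-miR-429-3p: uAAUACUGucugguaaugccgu
mmu-miR-200a-3p: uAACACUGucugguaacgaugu
mmu-miR-141-3p: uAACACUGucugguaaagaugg
mmu-miR-205-5p: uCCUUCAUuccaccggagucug

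After 6 h of TWEAK none of the 10 genes passed the test. Limma called 0 of 10 at a Benjamini-Hochberg adjusted p under 0.05, where it called 3% of all genes (661 of 22061, 1.28% higher and 1.71% lower), and the adjusted p of the members ran from 0.117 for Cdh2 to 0.980 for Tagln. At an unadjusted p under 0.05 there were 2 members, Cdh2 and Twist1, or 20% against 21.3% of all genes (8.15% higher and 13.1% lower). The arrays of the groups did not overlap for 3 members, against 26.4% of all genes. Twist1 was the higher one, against 12.9%, and Cdh2 and Zeb2 were the 2 lower ones, against 13.5%. These shares lie near those of the whole array. Mean values were higher under TWEAK for 5 members, against 58.5% of all genes, and lower for the other 5, with a median difference of -0.00169 on the log2 scale against 0.03 over all genes.

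The intervals bound how large a difference of the measured log2 values could have been missed. Cdh1, Snai2 and Zeb2 were dimmer than the median gene, and a fold change of a dim probe set can be understated. For all 10 members the 95% interval of the difference lay within a 2-fold change in either direction, as it did for 94.6% of all genes. The widest of the 10 belonged to Tagln, from -0.69 to 0.65 on the log2 scale, and the narrowest to Cdh1, from -0.08 to 0.31. The missed threshold therefore does not show that the levels were equal.

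**Figure D1:**
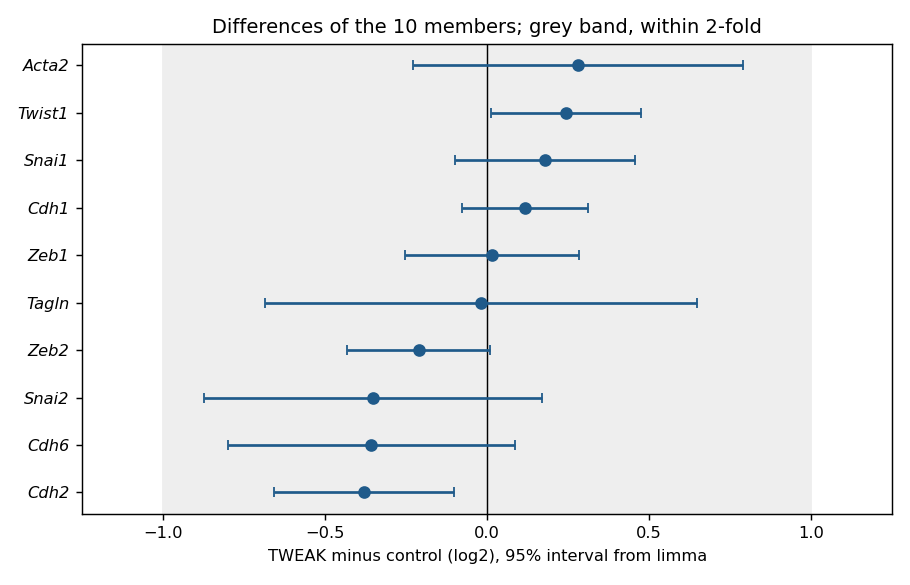
Difference of log2 means, TWEAK minus control, for each of the 10 genes (points) with limma's 95% interval (bars), from 3 arrays per group. The grey band marks a change within 2-fold, and every interval lies inside it. Only the intervals of Cdh2 and Twist1 leave out 0.

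Among the cadherins, Cdh2 had the largest difference of the 10 members. Its log2 values were 10.06, 10.26 and 10.39 in control 1, 2 and 3 and 9.84, 10.04 and 9.69 in TWEAK 1, 2 and 3. All TWEAK arrays lay below all control arrays, with a gap of 0.03 between TWEAK 2 and control 1. The group means were 10.24 ± 0.16 and 9.86 ± 0.17 (SD, n = 3), a difference of -0.38 (SE 0.12) or 1.30-fold lower, with an interval from -0.66 to -0.10. This did not pass limma's test over all genes, at an unadjusted p of 0.0136 and a Benjamini-Hochberg adjusted p of 0.117. The difference rested in part on the arrays numbered 3, the highest control and the lowest TWEAK array, and was -0.22 with both left out (adjusted p 0.544). Cdh2 passed in 2 of 18 alternative settings, with array weights (adjusted p 0.0321 in limma) and with the first axis of residual variation removed (0.0144).

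Cdh6, the other cadherin known from the proximal tubule, had a mean difference of similar size with a wider spread. Its log2 values were 8.95, 8.57 and 9.35 in control 1, 2 and 3 and 8.82, 8.54 and 8.44 in TWEAK 1, 2 and 3. The groups overlapped, since control 2 lay below TWEAK 1, and the control arrays alone spanned 0.78. The difference was -0.36 (SE 0.19, Benjamini-Hochberg adjusted p in limma 0.341). It became -0.16 without control 3, -0.08 without control 3 and TWEAK 3 and -0.05 with array weights, but -0.55 without control 2.

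Cdh1, the E-cadherin that the Snail, Zeb and Twist factors repress, was close between the groups. Its log2 values were 5.76, 5.64 and 5.69 in control 1, 2 and 3 and 5.85, 5.72 and 5.88 in TWEAK 1, 2 and 3. TWEAK 2 lay within the control range and the other TWEAK arrays just above it. The difference was 0.12 (SE 0.08, Benjamini-Hochberg adjusted p in limma 0.496). All 6 values lay below the medians of the arrays, 6.26 to 6.34, so the probe set was a dim one, and a fold change of a dim probe set can be understated.

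**Figure D2:**
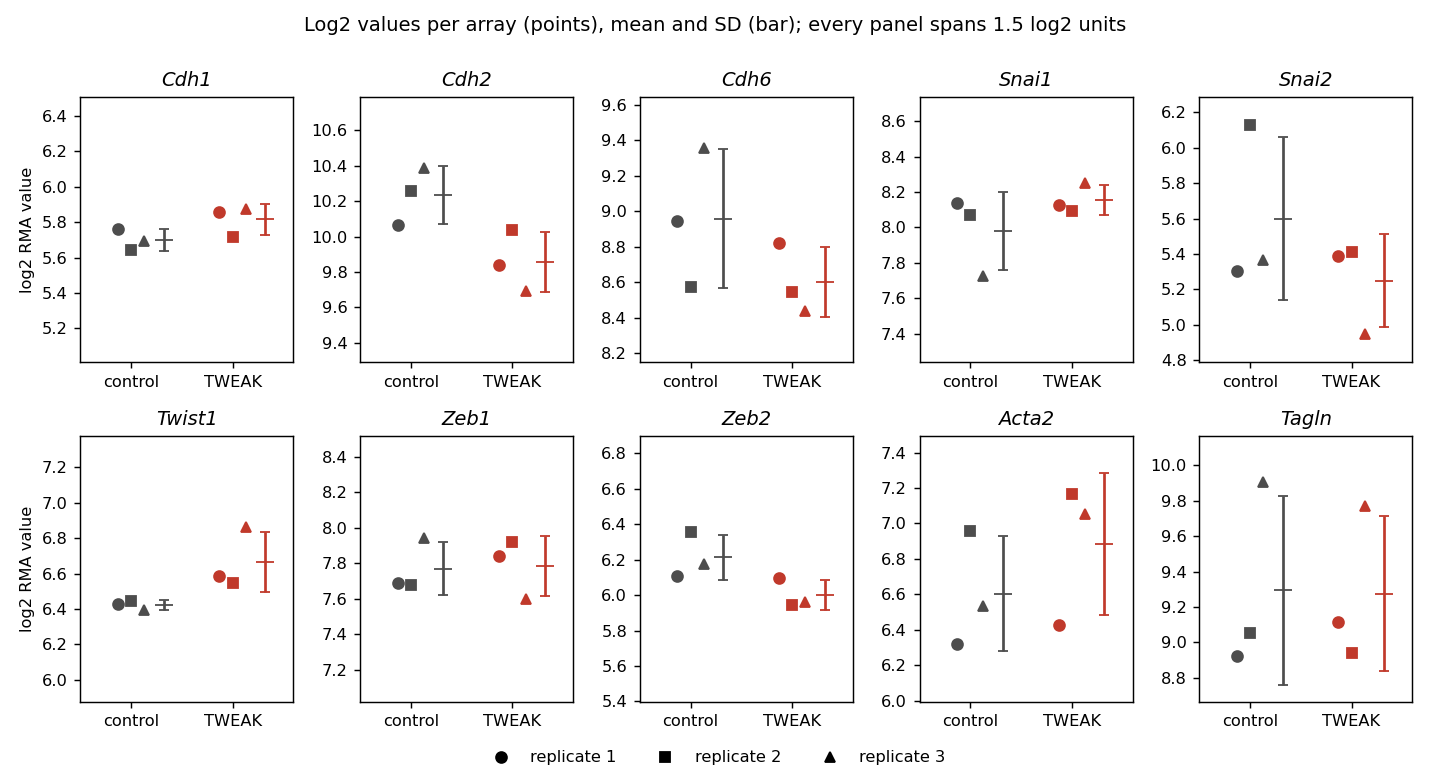
Log2 RMA value of each of the 10 genes on each array (symbols by replicate number), with group mean and SD beside them (n = 3), in panels that all span the same range of log2 units. Cdh2, Twist1 and Zeb2 show no overlap between control and TWEAK arrays, and Tagln is highest on the arrays numbered 3 in both groups.

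The Snail family members, zinc finger repressors that bind E-boxes, did not pass. Snai1 read 8.14, 8.07 and 7.73 in control 1, 2 and 3 and 8.13, 8.09 and 8.25 in TWEAK 1, 2 and 3. Control 3 was the low array, and the other control arrays lay among or next to the TWEAK arrays. The difference was 0.18 (SE 0.12, Benjamini-Hochberg adjusted p in limma 0.461), and it was 0.05 without control 3. Snai2 read 5.31, 6.13 and 5.36 in control 1, 2 and 3 and 5.39, 5.41 and 4.95 in TWEAK 1, 2 and 3. Here control 2 stood above the other 5 arrays, which overlapped. The difference of -0.35 (SE 0.23, Benjamini-Hochberg adjusted p in limma 0.437) ranged from -0.09 without control 2 to -0.71 with array weights (adjusted p 0.0661). Those weights were largest for control 2.

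The Snai1 promoter is shown because Snail is known to bind E-boxes, in human cells also in its own promoter. A search of the 250 bases before the start for CACCTG on both strands found 1 match in Snai1, at positions -126 to -121, where -1 is the base before the start. The sequence is chr2:167537945-167538194 of GRCm38.p6, plus strand, from RefSeq, with the match in capitals.
Snai1: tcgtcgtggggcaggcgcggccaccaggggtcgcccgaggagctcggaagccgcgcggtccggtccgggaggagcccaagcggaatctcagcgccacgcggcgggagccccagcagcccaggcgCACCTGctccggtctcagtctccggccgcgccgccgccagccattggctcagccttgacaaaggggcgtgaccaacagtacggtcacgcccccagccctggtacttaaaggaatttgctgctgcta
The same letters occurred in 17.2% of 32851 promoter windows of that length. Windows of 5 of the 10 members were searched, Acta2, Cdh6, Snai1, Twist1 and Zeb2. The other members, Cdh2 and Zeb1 among them, were not searched, in part because a chromosome was left out. None of the 5 held the NF-kB consensus on either strand, which 7.25% of all windows did. A match is a description of the letters, and no match says only that they are not in this window.

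Twist1, a basic helix-loop-helix repressor of Cdh1, was the 1 member whose TWEAK arrays all lay above its control arrays. It read 6.43, 6.45 and 6.39 in control 1, 2 and 3 and 6.59, 6.55 and 6.86 in TWEAK 1, 2 and 3. The control arrays spanned only 0.05, the gap between the groups was 0.10, and TWEAK 3 was the highest. The means of 6.42 ± 0.03 and 6.67 ± 0.17 (SD, n = 3) differed by 0.24 (SE 0.10) or 1.18-fold. The interval ran from 0.01 to 0.47, with an unadjusted p of 0.0424 and a Benjamini-Hochberg adjusted p of 0.214 in limma. Without control 3 and TWEAK 3 the difference was 0.13.

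The Zeb genes, zinc finger and homeodomain repressors of Cdh1, did not pass, with means near control for Zeb1 and below it for Zeb2. Zeb1 read 7.69, 7.68 and 7.94 in control 1, 2 and 3 and 7.84, 7.92 and 7.60 in TWEAK 1, 2 and 3. Its groups covered nearly the same range, with a difference of 0.02 (SE 0.12, Benjamini-Hochberg adjusted p in limma 0.960) whose sign turned in 6 of 18 alternatives. Zeb2 read 6.11, 6.35 and 6.18 in control 1, 2 and 3 and 6.10, 5.94 and 5.96 in TWEAK 1, 2 and 3. All its TWEAK arrays lay below the control arrays, but TWEAK 1 was only 0.01 under control 1. The Zeb2 difference was -0.21 (SE 0.10, Benjamini-Hochberg adjusted p in limma 0.253), and it passed in 1 of 17 alternatives, at -0.31 with array weights (adjusted p 0.0468). It was -0.14 without control 2 and -0.11 without control 2 and TWEAK 2 (adjusted p 0.748).

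The contractile genes varied more between arrays of a group than between the groups. Acta2, the smooth muscle alpha-actin used as a myofibroblast marker, read 6.32, 6.96 and 6.53 in control 1, 2 and 3 and 6.43, 7.17 and 7.06 in TWEAK 1, 2 and 3. The groups overlapped, and number 1 was the low array in both. Its difference was 0.28 (SE 0.22, Benjamini-Hochberg adjusted p in limma 0.536), -0.01 with array weights and 0.51 without TWEAK 1. With replicate number as a block in limma, the SE was 0.11 (unadjusted p 0.0409, adjusted p 0.206). Tagln, the actin-binding protein transgelin, read 8.92, 9.05 and 9.91 in control 1, 2 and 3 and 9.12, 8.94 and 9.77 in TWEAK 1, 2 and 3. Number 3 stood high in both groups, which spanned 0.98 and 0.83, while the difference between them was -0.02 (SE 0.29, Benjamini-Hochberg adjusted p in limma 0.980). With the same block the SE for Tagln was 0.10 (adjusted p in limma 0.935). The sign of the Tagln difference turned when arrays were centred on their medians (0.02) and in 6 other alternatives.

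The Acta2 promoter is shown for its CArG boxes, the sites of serum response factor (SRF), whose cofactors were also measured. No perfect CArG box was found in the 250 bases before the start, but 2 boxes with 1 mismatch in the A/T core were, at positions -84 to -75 and -34 to -25. The sequence is chr19:34255374-34255623 of GRCm38.p6, minus strand, from RefSeq, with both boxes in capitals.
Acta2: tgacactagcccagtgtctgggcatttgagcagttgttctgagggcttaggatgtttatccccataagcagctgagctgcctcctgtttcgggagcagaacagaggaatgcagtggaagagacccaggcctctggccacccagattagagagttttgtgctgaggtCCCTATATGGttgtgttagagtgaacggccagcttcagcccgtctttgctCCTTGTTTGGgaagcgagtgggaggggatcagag
At least 1 such box with 1 mismatch occurred in 7.25% of the 32851 windows, and 2 or more in 0.548%.

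The 2 members with the smallest p were set beside the genes of most similar pattern, measured as the root mean square difference of log2 values centred on each gene's own mean over the 6 arrays. For Cdh2 these were the ribosomal protein gene Rps3a1 (0.0162), the sarcoglycan gene Sgce (0.0352) and the receptor phosphatase gene Ptpra (0.0366). For Twist1 they were Tex264 (0.0159), Trim32 (0.0224) and the predicted gene Gm10614 (0.0234). None of these 6 passed limma's test, with Benjamini-Hochberg adjusted p from 0.0774 to 0.285. With 6 arrays and 22061 genes a close match is easily found.

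Beyond the 10 members, 86 genes reported here in 7 lists of the same biology were examined. Limma called 3 of the 86, or 3.49% against 3% of all genes, with 1 higher and 2 lower. Unadjusted p-values were under 0.05 for 19, or 22.1% against 21.3% of all genes. Arrays of the groups did not overlap for 21 of the 86, or 24.4% against 26.4% of all genes.

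Of 12 other transcription factors of the transition, 2 fell, against 1.71% of all genes, and 10 did not pass. Foxc1, a forkhead factor, read 6.90, 7.36 and 7.53 in control 1, 2 and 3 and 6.41, 6.49 and 6.39 in TWEAK 1, 2 and 3. It fell by 0.84 on the log2 scale (SE 0.15, Benjamini-Hochberg adjusted p in limma 0.0373). Tcf4, an E protein that pairs with Twist factors and binds E-boxes, read 7.31, 7.52 and 7.53 in control 1, 2 and 3 and 6.98, 6.87 and 7.03 in TWEAK 1, 2 and 3. It fell by 0.49 (SE 0.09, Benjamini-Hochberg adjusted p in limma 0.0408). Neither gene's groups overlapped, and 13.5% of all genes likewise had all TWEAK arrays below all control arrays. Both calls were lost when any 1 array other than control 1 was left out. Adjusted p in limma then reached 0.138 for Foxc1 and 0.150 for Tcf4. The list's median difference was 0.06.

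Of 12 catenins and other adherens junction genes, 1 rose, against 1.28% of all genes, and 11 did not pass. Nectin2, an immunoglobulin-like adhesion receptor of adherens junctions, read 9.06, 9.11 and 8.86 in control 1, 2 and 3 and 9.70, 9.47 and 9.78 in TWEAK 1, 2 and 3. It rose by 0.64 (SE 0.11, Benjamini-Hochberg adjusted p in limma 0.0365), a call lost without control 2, control 3, TWEAK 1 or TWEAK 3 (adjusted p up to 0.117). The median of the list was -0.18, opposite in sign to Nectin2, with 2 of 12 means higher against 58.5% of all genes. Unadjusted p-values were under 0.05 for 4 lower genes of the 12, against 13.1% of all genes, and for 1 higher gene, against 8.15%.

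Of the 13 mesenchymal markers reported here 0 passed limma's test, against 3% of all genes. At an unadjusted p under 0.05, 2 were higher, against 8.15% of all genes, and 1 was lower, against 13.1%. The smallest p belonged to the matrix glycoprotein tenascin C, Tnc, and the fibronectin receptor subunit Itga5. Tnc read 9.42, 9.80 and 9.67 in control 1, 2 and 3 and 10.03, 10.37 and 9.97 in TWEAK 1, 2 and 3, a difference of 0.49 (SE 0.14, Benjamini-Hochberg adjusted p in limma 0.0876). Itga5 differed by 0.40 (SE 0.11, adjusted p 0.0946). Neither gene's groups overlapped, and 12.9% of all genes likewise had all TWEAK arrays above all control arrays. Of the 13 genes reported here, the integrin subunit Itgb1, which pairs with Itga5, had the difference of largest size, at -0.87 (SE 0.29, adjusted p 0.135), a gene named after its value was seen. The median of the mesenchymal list was -0.02.

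The remaining 4 lists also had no member past limma's threshold, which 3% of all genes passed. At an unadjusted p under 0.05, 8.15% of all genes were higher and 13.1% lower. Among 11 other cadherins 1 higher and 1 lower gene had an unadjusted p under 0.05, and the smallest p belonged to the placental cadherin Cdh3 at -0.31 (SE 0.13) and the vascular endothelial cadherin Cdh5 at 0.20 (SE 0.09). In the group of 19 contractile genes and SRF cofactors, 3 higher and 1 lower gene had an unadjusted p under 0.05. Here the smallest p belonged to caldesmon, Cald1, at -0.64 (SE 0.15, Benjamini-Hochberg adjusted p in limma 0.0601). Next was Tagln2, a relative of Tagln, at 0.25 (SE 0.08, adjusted p 0.108). Of the 13 epithelial state regulators 0 had an unadjusted p under 0.05. Their smallest p were those of the zinc finger factor Ovol2 at 0.17 (SE 0.13) and the splicing factor Esrp2 at 0.11 (SE 0.10). Only 4 of these 13 were brighter than the median gene, so a change of the dimmer ones can be understated. Brighter than the median gene were 3 of the 11 other cadherins, 12 of the 19 contractile genes and cofactors and 10 of the 13 mesenchymal markers. The 6 microRNA genes whose mature sequences open the text also had 0 at an unadjusted p under 0.05, with Mir200a at 0.21 (SE 0.10) and Mir141 at 0.09 (SE 0.08). Of these 6 genes 5 lay below the lower quartile of genes, where a change could go unseen, and a probe set of a microRNA gene may not measure the mature form. Median differences of these 4 lists were 0.02, 0.10, 0.07 and 0.07.

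**Figure D3:**
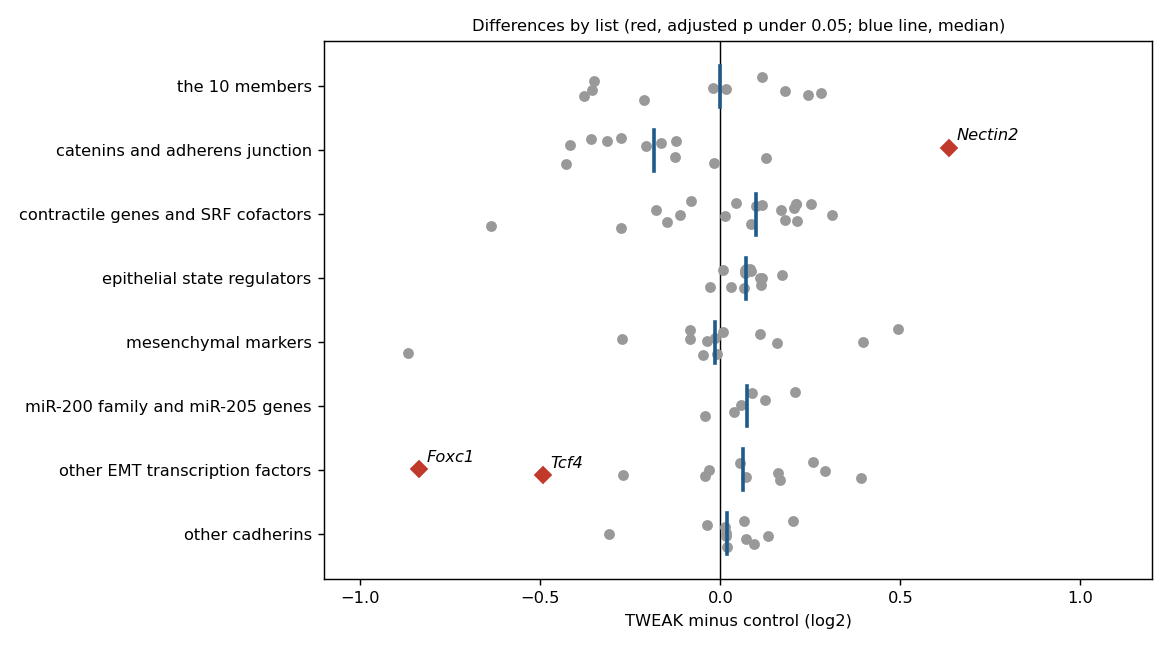
Difference of log2 means, TWEAK minus control, for each gene of the 7 lists and for the 10 members (points, with random vertical scatter), with the median of each group (blue line). Red diamonds mark the 3 genes past an adjusted p of 0.05 in limma, Nectin2, Foxc1 and Tcf4.

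The label of a proximal tubular epithelium was checked with markers. Of 9 general and renal epithelial genes 7 were brighter than the median gene, the exceptions being Cdh1 and Epcam. Of 10 proximal tubule markers 5 were, and the endocytic receptor Cubn, the transporters Slc34a1 and Slc22a6 and the enzymes Ggt1 and Gpx3 were below it. Brightness over the median gene was found for 0 of 6 endothelial, 1 of 7 leukocyte, 2 of 9 fibroblast and pericyte, and 1 of 6 distal nephron and podocyte markers. None of the 47 markers passed limma's test, where 3% of all genes did. The unadjusted p was under 0.05 for 3 that were higher, against 8.15% of all genes, and for 2 that were lower, against 13.1%. The summed unlogged level of the endothelial markers was 203 to 213 in control and 217 to 240 in TWEAK arrays, and that of the fibroblast and pericyte markers 525 to 587 and 532 to 619. Sums of the other 4 marker lists overlapped between control and TWEAK arrays. They were 1713 to 1880 and 1682 to 1741 for proximal tubule, and 8072 to 8812 and 7670 to 9545 for general and renal epithelium. For leukocytes they were 325 to 345 and 320 to 364, and for distal nephron and podocyte 294 to 353 and 317 to 373. The part of other cell types in the values above was not tested. In a culture measured as a whole, fewer cells with a transcript and less of it per cell cannot be told apart.

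**Figure D4:**
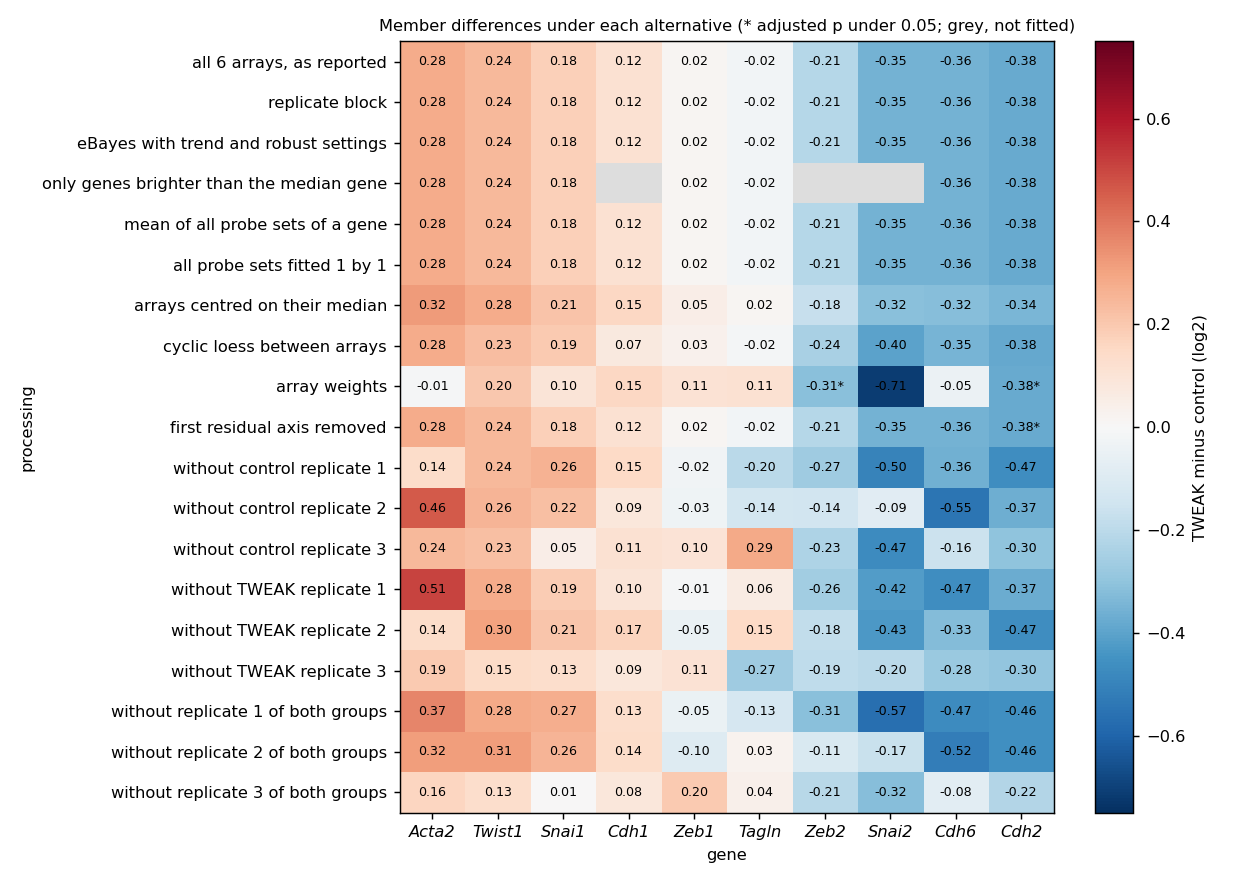
Difference of log2 means (TWEAK minus control, number and colour) for the 10 genes (columns) under the reported setting and each of 18 alternatives (rows). Asterisks mark an adjusted p under 0.05, which occurs for Cdh2 and Zeb2 with array weights and for Cdh2 with the residual axis removed, and grey cells are genes left out by the brightness filter.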

How the data were processed

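Per the submitters' processing notes, the authors used RMA and Affymetrix Expression Console; the deposited values are log2 levels for each probe set on each array. No source used here names software versions, an annotation release or a genome build. Because RMA equalises the distributions of arrays, a change common to most transcripts is invisible. The authors' deposited ratio (TWEAK over control), p-value and FDR columns were not used for results. Both deposited tables hold the same log2 values (largest difference 1.78e-15).

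Of 28361 probe sets, 25465 had 1 symbol, updated through RefSeq (GRCm38.p6). The probe set with the highest mean represented each of 22061 genes, with no filter. Differences were tested with limma 3.58.1 in R 4.3.3 (lmFit, eBayes, no block) with Benjamini-Hochberg adjustment over all genes at 0.05; SE is moderated, and ± is the SD. The p-values measure the spread between these arrays, whose number limits the precision. The code was tested on simulated data for 22061 genes: it recovered 98 of 100 genes shifted by 1 log2 unit and 100 of 100 shifted by 2, and made 13 false calls. The simulated noise was independent between genes, whereas the first axis of the real residuals held 43.4% of their variation. These counts check the code and do not give the power of this comparison.

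Members and lists were chosen with earlier results of these data known. A gene of the mesenchymal list is not reported here. Named genes are all members; from each list those past the threshold, otherwise the 2 with the smallest p; and for the 2 members with the smallest p the 3 most similar genes. Alternatives were a replicate block, variance, filter, probe set, scaling and weighting settings, a residual axis, and arrays left out. Figures used Python 3.11.15 and matplotlib 3.10.9.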

Additional observations from a re-analysis of the deposited data

How the results depend on the processing

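Of 18 alternatives, 15 were planned and 3, leaving out both arrays of a replicate number, were chosen after seeing the data. No member passed limma's threshold in 16 of them. Array weights called 2 members, Cdh2 (-0.38, adjusted p = 0.0321) and Zeb2 (-0.31, 0.0468), and removing the first axis of residual variation called 1, Cdh2 (-0.38, 0.0144). These settings also called 3223 and 2874 genes in all, and the axis was estimated from the same residuals that it removes. The weights too were estimated from these arrays. They were 0.60, 5.60 and 0.53 for control 1, 2 and 3 and 0.94, 0.91 and 0.65 for TWEAK 1, 2 and 3. With weights the control level therefore rests mostly on control 2. Of 177 member values, 14 reversed, in Zeb1, Tagln and Acta2. Tagln was at 0.017 with arrays centred and at 0.11 with array weights, where Acta2 was at -0.0083. With single arrays left out Zeb1 ran from -0.0507 to 0.11, Tagln from -0.27 to 0.29 and Acta2 from 0.14 to 0.51. With both arrays of number 1, 2 or 3 left out, Zeb1 was at -0.0511, -0.0969 and 0.196 and Tagln at -0.13, 0.0286 and 0.0382. The other 7 members kept their sign throughout.

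The count over all genes, 661, was 207 with the replicate block, 1020 with only brighter genes, 107 over single probe sets and 267 after cyclic loess. It ran from 1 to 1876 with single arrays left out and was 0, 0 and 46 without number 1, 2 or 3 of both groups, with 4465, 3353 and 2863 genes at limma's unadjusted p under 0.05. Sample labels do not say whether a number marks a shared experiment, and the arrays were not treated as paired. Deviations from group means correlated across genes at 0.20, 0.36 and -0.07 for arrays of the same number and from -0.49 to 0.29 for arrays of different numbers. With the replicate block the calls of Foxc1, Tcf4 and Nectin2 were lost (adjusted p 0.0608, 0.0714 and 0.0714). Array weights called 3223 of 22061 genes in all. Of the lists without a call, they called 6 of 19 contractile genes, 2 of 13 mesenchymal markers and 1 of 11 other cadherins. Removing the residual axis called 2874 of 22061 genes, with 3 of 13 mesenchymal markers and 1 of 19 contractile genes among them. The trend and robust settings, the brightness filter and leaving out control 1 each called 1 contractile gene. They called 881 of 22061, 1020 of 11030 and 1876 of 22061 genes in all. The catenin list, with 1 call as reported, had 4 with array weights and 3 with the axis removed. It had 0 with the replicate block and over single probe sets. The epithelial regulators and microRNA genes had 0 calls throughout. The cause of these shifts was not tested. Dim probe sets such as Cdh1, Snai2 and Zeb2 limit what could be seen.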
